A study of Mus musculus with 9 samples.

Results

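Transcripts of the Rab GTPases were described in bone marrow-derived macrophages, which are cells grown from mouse bone marrow into macrophages in culture. The members were chosen by gene symbol, as every gene named Rab followed by a number and at most a paralogue letter, and 59 of the 56775 genes in the files met the rule. RNA was sequenced from 3 groups of 3 libraries. The MKP5-/- 24 h group lacked the gene of the phosphatase MKP5 and had been given oxidized low-density lipoprotein (ox-LDL) at 20 µg/mL for 24 h. The WT 24 h group was wild type and had the same treatment. The WT 0 h group was wild type and had no ox-LDL. Both genotypes were on the C57BL/6 background, and all cells came from femurs and were grown for 7 days in medium with 15% L-929 supernatant, the usual source of the macrophage growth factor M-CSF. The labels do not say how the MKP5 allele was made, or whether the 3 libraries of a group came from separate mice or cultures, so the p-values measure only the spread between these libraries. WT 24 h against WT 0 h joins ox-LDL with a further day of culture, since no untreated culture at 24 h was analysed here. MKP5-/- cells at 0 h were not analysed here either, so a difference between genotypes at 24 h cannot be told apart from one already there without ox-LDL.

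Rab proteins are small GTPases that mark the membranes of a cell, each on its own set of compartments. Exchange factors load a Rab with GTP, GTPase-activating proteins switch it off, and the GTP-bound form recruits effectors that move, tether and fuse vesicles. Lipid anchors added by a prenyl transferase hold Rabs on membranes, and GDP dissociation inhibitors take inactive Rabs off them. In macrophages Rabs pass phagosomes and endosomes with their cargo, lipoproteins included, on to lysosomes, and they guide secretion.

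Reads recovered from the deposited values numbered 11036181 to 14233693 in MKP5-/- 24 h libraries, 17281845 to 19678905 in WT 24 h libraries and 15608551 to 17049855 in WT 0 h libraries, so the MKP5-/- group was the shallowest. Dusp10, the gene of MKP5, had 4, 6 and 4 reads in MKP5-/- 24 h libraries, against 43, 38 and 40 reads in WT 24 h libraries, and 41, 48 and 44 reads in WT 0 h libraries. It was lower in MKP5-/- than in WT at 24 h by a log2 fold change of -2.50 (SE 0.26, adjusted p = 9.3e-05). All 8 macrophage markers passed the low-read filter, and their summed level was 6239 to 7138 RPKM in MKP5-/- 24 h, 9772 to 11434 RPKM in WT 24 h and 4094 to 4205 RPKM in WT 0 h. RPKM here means recovered reads scaled to kilobases of exon and to the TMM-scaled library size. Single macrophage markers went both ways, with 5 higher and 3 lower in WT 24 h against WT 0 h (adjusted p under 0.05). In MKP5-/- 24 h against WT 24 h, 3 were higher, 3 lower and 2 not past that threshold. Markers of 3 other cell types moved with the groups. The 7 neutrophil and precursor markers summed to 0.481 to 0.726 RPKM in MKP5-/- 24 h, 0.264 to 0.773 RPKM in WT 24 h and 110 to 121 RPKM in WT 0 h, and Camp and Elane had no reads in either 24 h group. The 7 fibroblast markers summed to 0.906 to 2.10 RPKM in MKP5-/- 24 h, 9.73 to 11.98 RPKM in WT 24 h and 0.303 to 0.448 RPKM in WT 0 h. The 6 osteoclast markers summed to 56.6 to 60.01 RPKM in MKP5-/- 24 h, 7.86 to 14.2 RPKM in WT 24 h and 4.45 to 5.32 RPKM in WT 0 h, with Calcr at 0 reads in both WT groups. The 6 dendritic cell markers and the 6 T, B and NK cell markers each summed to at most 0.606 RPKM in any library. The part of these other cells in the results below was not tested, and in bulk RNA fewer cells of a type and less RNA per cell cannot be told apart.

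Of the 59 members, 56 had enough reads for the test, which asked for 15 reads or more in total and, in 3 or more libraries, for the equivalent of 10 reads in a library of median depth. Rab17, a Rab of polarized epithelia, had no reads in any of the 9 libraries. Rab25, an epithelial relative of Rab11, had 2 reads in all, both in WT 0 h replicate 3. Rab38, which serves melanosomes and other lysosome-related organelles beside Rab32, had 6, 7 and 6 reads in MKP5-/- 24 h libraries, 21, 11 and 13 reads in WT 24 h libraries, and 0, 8 and 1 reads in WT 0 h libraries. The summed reads of all members, scaled to library size in RPM, were 3909, 4237 and 4254 in MKP5-/- 24 h libraries, 4332, 4428 and 4579 in WT 24 h libraries, and 4264, 4540 and 4387 in WT 0 h libraries. Every MKP5-/- 24 h library was thus below every WT 24 h library, with an exact two-sided permutation p of 0.1, the smallest that 3 against 3 allows. These sums rest on the deposited TMM scaling, and whether the gap holds under other scalings was not tested. The WT groups overlapped (exact permutation p = 0.7).

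Levels per length spanned orders of magnitude between members, and the 2 highest were the same in each group. Rab7, which drives late endosomes and phagosomes to fuse with lysosomes, was the highest in each group at 195 ± 11.2 RPKM in MKP5-/- 24 h, 179.6 ± 0.664 RPKM in WT 24 h and 215 ± 5.21 RPKM in WT 0 h (mean ± SD, n = 3). Rab5c, one of 3 Rab5 genes of the early endosome, ranked 2 at 153 ± 8.44 RPKM in MKP5-/- 24 h, 157 ± 2.26 RPKM in WT 24 h and 154 ± 10.1 RPKM in WT 0 h. Libraries of both stood apart from those of the next member in the order of the MKP5-/- 24 h group. Below them, Rab1a ranked 3 in WT 0 h at 101 ± 5.89 RPKM but 6 in both 24 h groups, at 55.1 ± 5.49 RPKM in MKP5-/- and 71.8 ± 3.47 RPKM in WT. Rab7b ranked 5 in MKP5-/- 24 h at 62.3 ± 3.21 RPKM, 10 in WT 24 h at 39.3 ± 3.03 RPKM and 7 in WT 0 h at 54.5 ± 1.66 RPKM. In the MKP5-/- 24 h group, the ranges of Rab7b, Rab1a, Rab2a and Rab31 each overlapped that of the next in order, so the order from Rab7b through Rab10 there is not set beyond the spread. In all, 40 members had a mean of at least 1 RPKM in every group, 26 of at least 10 RPKM and 7 of at least 50 RPKM, and 17 stayed under 1 RPKM in every group.

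**Figure D1:**
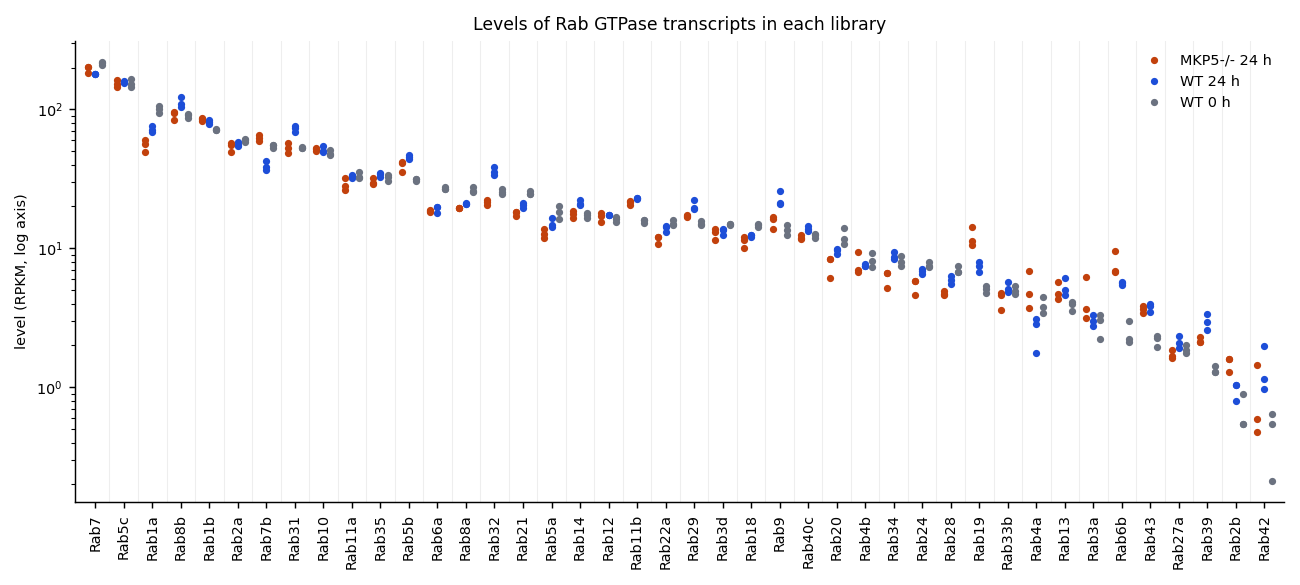
Level of each Rab member in each library, in RPKM on a log axis, for members whose mean reached 1 RPKM in at least 1 group, ordered by the WT 0 h mean. Points are single libraries of MKP5-/- 24 h (orange), WT 24 h (blue) and WT 0 h (grey); Rab7 and Rab5c stand above all others in each group.

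After 24 h with ox-LDL about the same share of Rabs as of all genes differed, in both directions and mostly by small folds. Of the 56 tested members, 28 passed the threshold of an adjusted p under 0.05 in WT 24 h against WT 0 h (against 55.5% of all 14699 tested genes). Of these, 16 were higher (28.6%, against 27.4% of all genes) and 12 were lower (21.4%, against 28.1%). The 3 libraries of each group did not overlap for 32 members (57.1%), against 64.1% of all genes. The median log2 fold change was 0.08 over the tested members and 0.00 over all tested genes. Among the 28 called members, 21 differed by less than 1.5-fold. A fold of at least 2 was reached by 4 of the 28, against 2494 of the 8161 called genes. Under every alternative processing 21 members were called, 13 of them higher and 8 lower. The shares of all genes under 1.5-fold or called under every alternative are not given here.

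In MKP5-/- cells the called Rabs lay mainly on the lower side. In MKP5-/- 24 h against WT 24 h, 20 of the 56 tested members were called (35.7%, against 28.7% of all tested genes). Only 4 of these were higher (7.1%, against 11.8%) and 16 were lower (28.6%, against 16.9%). The groups did not overlap for 33 members (58.9%, against 44.9%), and the median was -0.09 over the members and -0.05 over all genes. The split depended on scaling, with 8 members higher and 9 lower under upper-quartile scaling, and 8 higher and 15 lower under relative log expression scaling. The count of 20 fell to 12 without WT 24 h replicate 2 and to 13 without WT 24 h replicate 3, and it was 14 without MKP5-/- replicate 1. That last library was the lowest of its group for 30 of the 42 members above 1 RPKM in some group and the highest for 10. Among the 17 others it was the highest for 8, and the shares over all genes are not given here. Under every alternative 10 members were called, Rab1a, Rab8b, Rab9, Rab14, Rab31, Rab32 and Rab34 lower and Rab4a, Rab7b and Rab19 higher. The share of all genes called under every alternative is not given here. A fold of at least 2 was reached by 1 of the 20 called members, against 819 of the 4213 called genes. Both comparisons use the WT 24 h libraries, so a high or low WT 24 h value moves them in opposite directions, and the levels of all 3 groups are therefore given side by side.

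**Figure D2:**
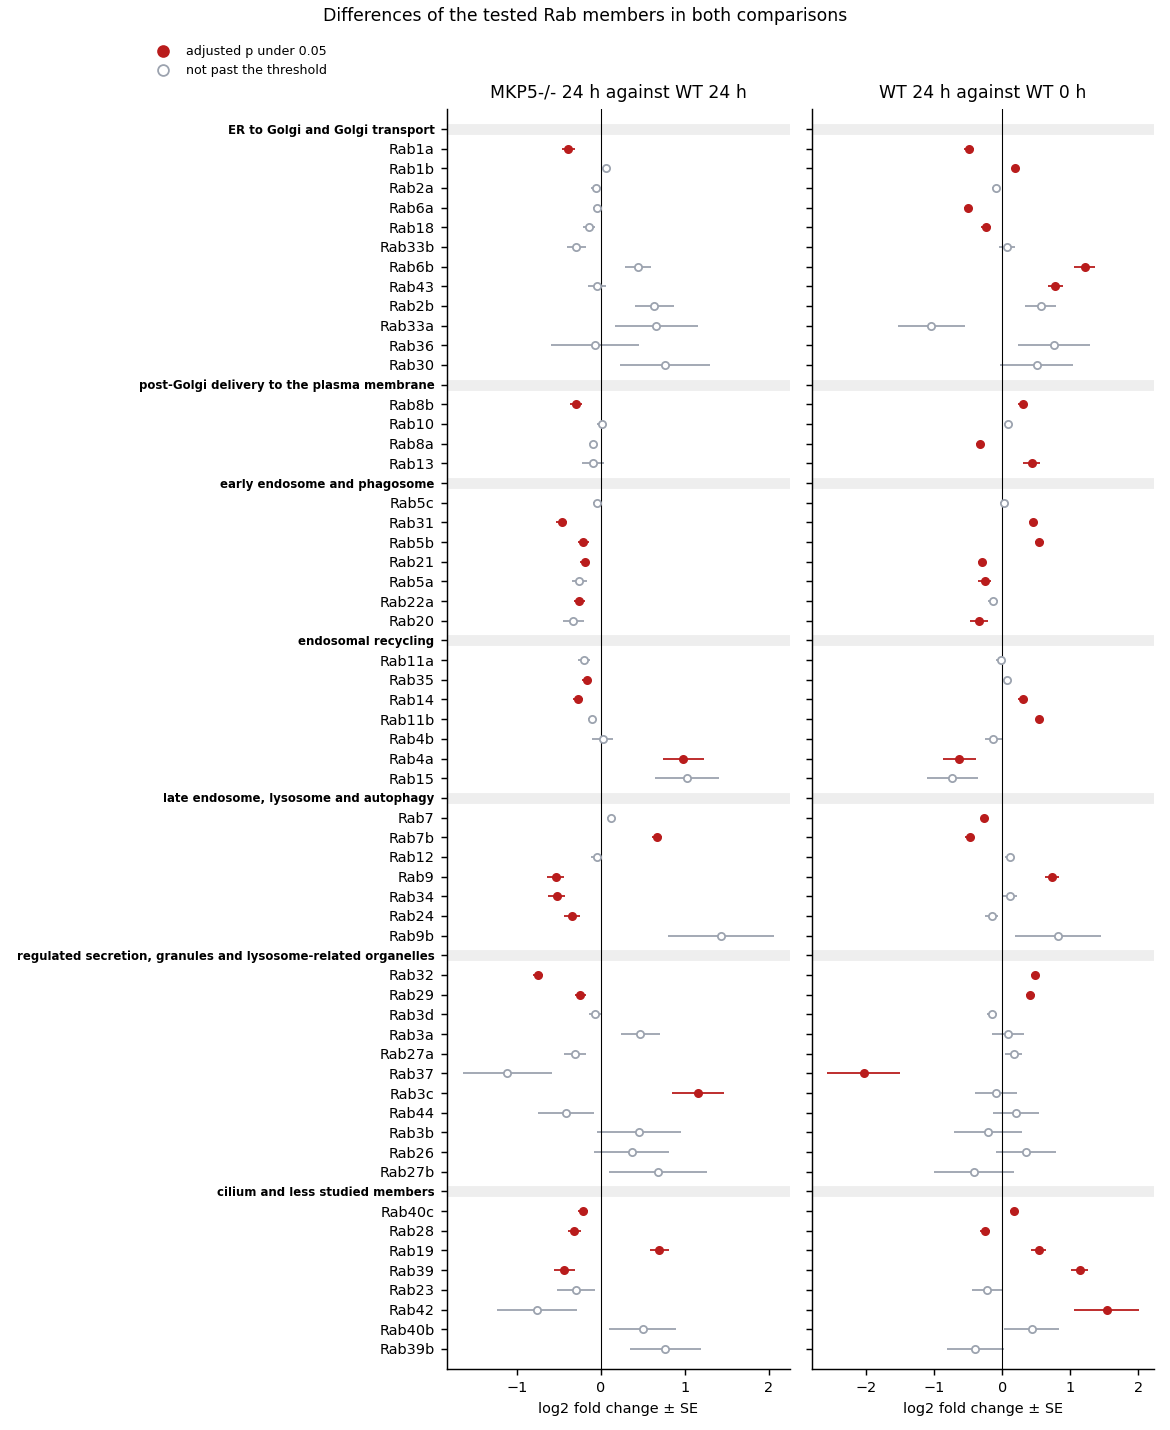
Log2 fold change of the 56 tested members, grouped by compartment, in MKP5-/- 24 h against WT 24 h (left) and WT 24 h against WT 0 h (right). Bars are standard errors of the limma fit, and filled points passed an adjusted p of 0.05, 20 on the left and 28 on the right.

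In the sentences on single genes that follow, levels carry the unit RPKM, and differences without a unit are log2 fold changes on the deposited scale, of MKP5-/- against WT at 24 h or, for ox-LDL, of WT 24 h against WT 0 h. Among the 12 Rabs of transport between endoplasmic reticulum and Golgi, 6 were called with ox-LDL (55.5% of all tested genes were) and 1 between genotypes (8.3%, against 28.7% of all tested genes). Rab6b, a Golgi Rab best known from neurons, had 9.56, 6.76 and 6.87 RPKM in MKP5-/- 24 h libraries, 5.64, 5.43 and 5.77 RPKM in WT 24 h libraries, and 3.00, 2.13 and 2.21 RPKM in WT 0 h libraries. No WT 24 h library overlapped WT 0 h, and Rab6b rose by a log2 fold change of 1.21 (SE 0.15, adjusted p = 4.6e-05). Its difference of 0.44 between genotypes missed the threshold (adjusted p = 0.051), although all 3 MKP5-/- libraries were above all WT 24 h libraries. Its ubiquitous relative Rab6a, which returns vesicles to the Golgi, averaged 18.6 RPKM in MKP5-/- 24 h, 19.2 RPKM in WT 24 h and 27.1 RPKM in WT 0 h. Rab6a fell with ox-LDL by 0.50 on the log2 scale. Rab1a, which acts in the first step out of the endoplasmic reticulum, had 49.2, 56.2 and 59.99 RPKM in MKP5-/- 24 h libraries, 68.8, 71.2 and 75.6 RPKM in WT 24 h libraries, and 94.7, 106 and 101 RPKM in WT 0 h libraries. The 3 groups did not overlap, and Rab1a fell both with ox-LDL (log2 fold change -0.49, adjusted p = 0.00017) and in MKP5-/- against WT at 24 h (-0.39, adjusted p = 0.0032). Rab1b, its close paralogue, went the other way with ox-LDL, higher by 0.18 (adjusted p = 0.0033), and was at 0.07 between genotypes (adjusted p = 0.26). Rab43 rose with ox-LDL by 0.78, and Rab18, a Rab of lipid droplets and the endoplasmic reticulum, fell by 0.24. Rab2a, at 54.0 RPKM in MKP5-/- 24 h, 56.0 RPKM in WT 24 h and 59.8 RPKM in WT 0 h, passed neither test.

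Of the 4 Rabs that carry Golgi cargo to the cell surface, 3 were called with ox-LDL (75.0%, against 55.5% of all tested genes) and 1 between genotypes (against 28.7%). Rab8b rose by 0.30 with ox-LDL and was lower by 0.29 in MKP5-/- cells, with 90.9 ± 6.73 RPKM in MKP5-/- 24 h, 112 ± 9.60 RPKM in WT 24 h and 90.3 ± 3.60 RPKM in WT 0 h (SD, n = 3). Rab8a fell by 0.33 with ox-LDL, with a log2 fold change of -0.10 between genotypes (adjusted p = 0.15). Rab13 rose by 0.43, a call that was lost without WT 24 h replicate 3 or WT 0 h replicate 3. Rab10, at 51.7 RPKM in MKP5-/- 24 h, 51.4 RPKM in WT 24 h and 48.4 RPKM in WT 0 h, passed neither test, and its 95% interval for the genotype difference ran from -0.11 to 0.13 on the log2 scale.

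Of the 7 tested early endosomal and phagosomal Rabs, 4 were lower and none higher in MKP5-/- cells (57.1%, against 28.7% of all tested genes), and the median log2 fold change was -0.25. With ox-LDL 5 of the 7 were called (71.4%, against 55.5%). Rab31, which works between the Golgi, endosomes and phagosomes, had 48.5, 52.8 and 57.0 RPKM in MKP5-/- 24 h libraries, 68.3, 73.4 and 76.3 RPKM in WT 24 h libraries, and 52.8, 52.9 and 53.4 RPKM in WT 0 h libraries. Its WT 24 h libraries were above all 6 others. The log2 fold change was -0.46 in MKP5-/- against WT at 24 h (SE 0.06, adjusted p = 0.00043) and 0.45 in WT 24 h against WT 0 h (SE 0.06, adjusted p = 8.4e-05). The other 3 lower members were Rab5b, Rab21 and Rab22a, at -0.21, -0.19 and -0.25, and each of these calls was lost without WT 24 h replicate 2, WT 24 h replicate 3 or MKP5-/- replicate 1. Those of Rab5b and Rab21 were also lost under upper-quartile scaling and without limma's trend and robust options. Both were lost, too, in the 6 libraries of the comparison alone, and that of Rab5b with no filter on low values. With ox-LDL, Rab5b rose by 0.55, whereas Rab21, linked to integrin uptake, fell by 0.30. Rab5a fell by 0.26 and Rab20, known from phagosome maturation in macrophages, by 0.34, and both calls were lost in several alternatives, with adjusted p up to 0.13 for Rab5a and 0.18 for Rab20. Rab5c, the main Rab5 transcript, passed neither test, at -0.04 between genotypes (95% interval -0.16 to 0.08) and 0.03 with ox-LDL (-0.09 to 0.15).

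Recycling Rabs return receptors from endosomes to the surface, and 3 of 7 tested members were called in each comparison (42.9%, against 28.7% of all tested genes between genotypes and 55.5% with ox-LDL). Rab4a, of the fast recycling route, had 3.73, 4.70 and 6.82 RPKM in MKP5-/- 24 h libraries, 1.75, 3.08 and 2.87 RPKM in WT 24 h libraries, and 3.40, 4.48 and 3.79 RPKM in WT 0 h libraries. It was higher in MKP5-/- than in WT at 24 h by a log2 fold change of 0.98 (SE 0.24, adjusted p = 0.015), with replicates spread widely in both groups. Its fall of 0.63 with ox-LDL (adjusted p = 0.049) was lost in 7 of 18 alternatives. Rab14, shared by Golgi, endosomes and phagosomes, rose by 0.30 with ox-LDL and was lower by 0.27 in MKP5-/- cells. Rab11b rose by 0.54 with ox-LDL, while Rab11a stood at -0.02 (adjusted p = 0.82). Rab35 was lower in MKP5-/- cells by 0.17, a call kept in only 4 of 18 alternatives.

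The 7 Rabs of late endosomes, lysosomes and autophagy split between genotypes, with 1 higher (14.3%, against 11.8% of all tested genes) and 3 lower (42.9%, against 16.9%). With ox-LDL 3 of the 7 were called (42.9%, against 55.5%). Rab7b, which acts between late endosomes and the Golgi and is known in macrophages for limiting Toll-like receptor signals, had 59.1, 65.5 and 62.3 RPKM in MKP5-/- 24 h libraries, 42.6, 38.5 and 36.7 RPKM in WT 24 h libraries, and 52.6, 55.8 and 55.1 RPKM in WT 0 h libraries. The 3 groups did not overlap, with WT 24 h lowest and MKP5-/- 24 h highest. Rab7b was higher in MKP5-/- than in WT at 24 h by 0.67 (SE 0.06, adjusted p = 4.4e-05) and fell in WT with ox-LDL by 0.48 (SE 0.06, adjusted p = 5.5e-05). Rab7 itself fell with ox-LDL by 0.26 and was at 0.12 between genotypes (adjusted p = 0.082). Rab9, which returns mannose 6-phosphate receptors from late endosomes to the Golgi, had 13.7, 16.3 and 16.9 RPKM in MKP5-/- 24 h libraries, 20.9, 21.2 and 25.9 RPKM in WT 24 h libraries, and 12.5, 13.6 and 14.7 RPKM in WT 0 h libraries. It was lower in MKP5-/- cells by 0.54 (adjusted p = 0.0034) and rose with ox-LDL by 0.73 (adjusted p = 9.9e-05). Rab34, of macropinosomes and lysosome positioning, was lower in MKP5-/- cells by 0.53 (adjusted p = 0.0040), at 6.14 ± 0.820 RPKM against 8.81 ± 0.592 RPKM in WT 24 h. With ox-LDL it was at 0.12 (adjusted p = 0.36). Rab24, linked to autophagy, was lower by 0.34 in MKP5-/- cells, a call lost without MKP5-/- replicate 1, WT 24 h replicate 2 or WT 24 h replicate 3. Summed macrophage markers and summed fibroblast markers, like Rab9, Rab31 and Rab32, were higher in WT 24 h than in both other groups. Single macrophage markers went both ways, and the part of either cell type in these differences was not tested.

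**Figure D3:**
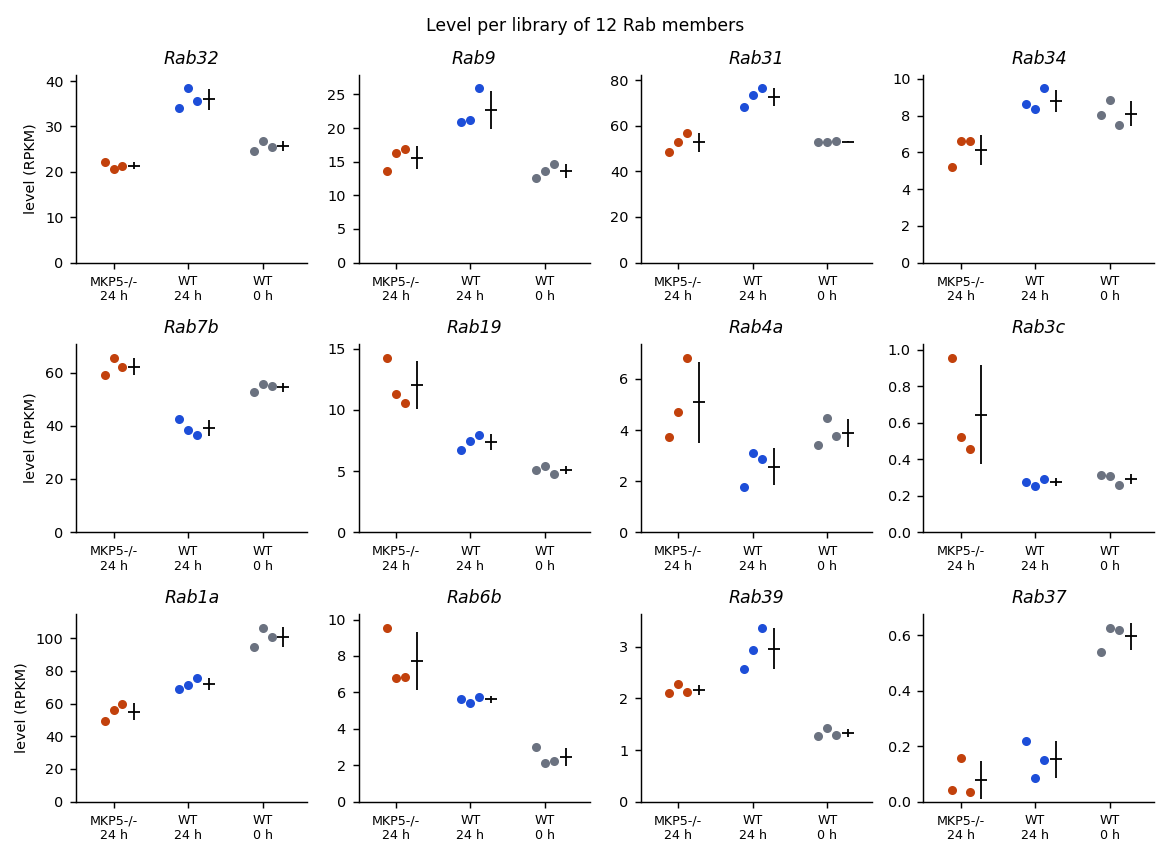
Level in RPKM of 12 Rab members in the 3 libraries of MKP5-/- 24 h, WT 24 h and WT 0 h, with the group mean and SD in black; each axis starts at 0. Rab32, Rab9 and Rab31 were highest in WT 24 h, while Rab7b was lowest there.

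Of the 11 tested Rabs of regulated secretion and lysosome-related organelles, 3 were called in each comparison (27.3%, against 28.7% of all tested genes between genotypes and 55.5% with ox-LDL). Rab32, which builds lysosome-related organelles and in macrophages takes part in host defence, had 22.1, 20.6 and 21.4 RPKM in MKP5-/- 24 h libraries, 34.0, 38.4 and 35.5 RPKM in WT 24 h libraries, and 24.6, 26.9 and 25.5 RPKM in WT 0 h libraries. No 2 groups overlapped. Its log2 fold change of -0.75 in MKP5-/- against WT at 24 h had the smallest adjusted p of any member in that comparison (SE 0.06, adjusted p = 1.6e-05), and it rose with ox-LDL by 0.48 (adjusted p = 3.4e-05). Rab29, its relative at the Golgi and at stressed lysosomes, rose by 0.42 with ox-LDL and was lower by 0.24 in MKP5-/- cells, where the call was lost under upper-quartile scaling and without WT 24 h replicate 3. Rab3c, a synaptic vesicle Rab in neurons, had only 158, 97 and 91 reads in MKP5-/- 24 h libraries, against 68, 66 and 80 reads in WT 24 h libraries, and 69, 72 and 58 reads in WT 0 h libraries. It was higher in MKP5-/- than in WT at 24 h by 1.15 (SE 0.31, adjusted p = 0.019), the one called genotype difference of at least 2-fold, and the call was lost with no filter on low values and without WT 24 h replicate 2. Rab37, a secretory granule Rab, had 3, 13 and 3 reads in MKP5-/- 24 h libraries, 24, 10 and 18 reads in WT 24 h libraries, and 53, 65 and 61 reads in WT 0 h libraries. It fell with ox-LDL by 2.03 on the log2 scale (SE 0.53, adjusted p = 0.0067), beside the fall of all 7 neutrophil and precursor markers.

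Of the 8 cilium-linked and less studied members, 5 were called with ox-LDL (62.5%, against 55.5% of all tested genes) and 4 between genotypes (against 28.7% of all tested genes). Rab19 had 14.3, 11.3 and 10.6 RPKM in MKP5-/- 24 h libraries, 6.71, 7.49 and 7.96 RPKM in WT 24 h libraries, and 5.11, 5.39 and 4.77 RPKM in WT 0 h libraries. The groups did not overlap, and Rab19 was the one member called higher in both comparisons, at 0.70 in MKP5-/- against WT at 24 h (adjusted p = 0.0011) and 0.53 with ox-LDL (adjusted p = 0.0015). Rab39, a Rab of phagosomes and lysosomes, had 2.11, 2.28 and 2.12 RPKM in MKP5-/- 24 h libraries, 2.57, 2.94 and 3.37 RPKM in WT 24 h libraries, and 1.28, 1.42 and 1.29 RPKM in WT 0 h libraries. It rose with ox-LDL by 1.14 (SE 0.13, adjusted p = 1.5e-05), and its lower value of -0.44 in MKP5-/- cells (adjusted p = 0.026) was lost in 6 of 18 alternatives. Rab42 had 15, 7 and 6 reads in MKP5-/- 24 h libraries, 15, 19 and 34 reads in WT 24 h libraries, and 9, 8 and 3 reads in WT 0 h libraries. Its rise of 1.53 (adjusted p = 0.017) was lost without WT 24 h replicate 3 or WT 0 h replicate 3. Rab28, of photoreceptor and other cilia, fell with ox-LDL by 0.25 and was lower by 0.32 in MKP5-/- cells. The ox-LDL call of Rab28 was lost without WT 24 h replicate 1 or WT 0 h replicate 2, and its genotype call under upper-quartile scaling. Rab40c, which serves as part of a ubiquitin ligase, rose with ox-LDL by 0.17 and was lower by 0.21 in MKP5-/- cells, and each call was lost in some alternatives.

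In neither comparison were 23 of the 56 tested members called, and the share over all tested genes is not given here. Those at 1 RPKM or more in every group were Rab2a, Rab3a, Rab3d, Rab4b, Rab5c, Rab10, Rab11a, Rab12, Rab27a and Rab33b. Rab27a, which docks secretory granules and lysosome-related organelles, averaged 1.71 ± 0.118 RPKM in MKP5-/- 24 h, 2.12 ± 0.208 RPKM in WT 24 h and 1.88 ± 0.136 RPKM in WT 0 h (SD, n = 3). Rab3d, a Rab of secretory granules, averaged 12.7 ± 1.15 RPKM in MKP5-/- 24 h, 13.3 ± 0.690 RPKM in WT 24 h and 14.8 ± 0.156 RPKM in WT 0 h. The other uncalled members were Rab2b, Rab3b, Rab9b, Rab15, Rab23, Rab26, Rab27b, Rab30, Rab33a, Rab36, Rab39b, Rab40b and Rab44. Some of these had large but imprecise values, such as 1.43 for Rab9b between genotypes (SE 0.63, adjusted p = 0.11), with 9, 9 and 11 reads in MKP5-/- 24 h libraries, against 13, 2 and 4 reads in WT 24 h libraries. Rab15 had 96, 44 and 47 reads in MKP5-/- 24 h libraries, against 53, 29 and 43 reads in WT 24 h libraries, and its difference of 1.03 missed the threshold (adjusted p = 0.065).

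Promoter windows of 250 bases up to the RefSeq transcript start (build GRCm38.p6) are shown for 4 called members, each with the letters of a motif known from macrophage gene regulation in capitals. The motifs were PU.1 (GAGGAAGT, bound by the lineage factor of macrophages), CLEAR (TCACGTGA, the lysosomal gene box of TFEB), AP-1 (TGANTCA, bound by Jun and Fos factors) and the interferon element ISRE (GAAA, any 2 bases, GAAA). Rab32 lies at chr10:10558208-10558457 on the minus strand with the PU.1 letters 43 bases before the start. Rab21 lies at chr10:115315592-115315841 on the minus strand with CLEAR letters 31 bases before the start. Rab34 lies at chr11:78188177-78188426 on the plus strand with AP-1 letters 58 bases before the start. Rab19 lies at chr6:39381103-39381352 on the plus strand, and its last 10 bases are ISRE letters read on the other strand.
Rab32: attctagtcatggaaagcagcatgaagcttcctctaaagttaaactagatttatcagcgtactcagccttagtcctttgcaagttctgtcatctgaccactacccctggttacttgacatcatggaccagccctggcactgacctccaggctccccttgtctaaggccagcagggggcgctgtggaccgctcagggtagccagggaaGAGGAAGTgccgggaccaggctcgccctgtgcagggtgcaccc
Rab21: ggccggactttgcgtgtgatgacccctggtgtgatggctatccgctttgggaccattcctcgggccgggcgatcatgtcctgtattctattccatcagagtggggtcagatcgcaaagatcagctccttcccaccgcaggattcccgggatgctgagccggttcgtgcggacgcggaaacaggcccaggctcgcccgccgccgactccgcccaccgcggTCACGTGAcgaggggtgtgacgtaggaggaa
Rab34: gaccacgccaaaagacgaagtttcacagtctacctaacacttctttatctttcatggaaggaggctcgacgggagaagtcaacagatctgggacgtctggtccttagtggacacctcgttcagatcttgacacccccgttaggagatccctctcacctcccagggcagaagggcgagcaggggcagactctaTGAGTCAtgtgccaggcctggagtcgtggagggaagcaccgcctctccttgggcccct
Rab19: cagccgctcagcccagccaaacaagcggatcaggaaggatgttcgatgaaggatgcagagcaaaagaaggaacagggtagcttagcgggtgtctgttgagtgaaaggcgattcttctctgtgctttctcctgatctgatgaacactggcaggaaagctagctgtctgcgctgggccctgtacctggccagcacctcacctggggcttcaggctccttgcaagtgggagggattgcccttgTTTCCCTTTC
The table held 60 promoters of 48 members, and each motif was searched on both strands without regard to overlap between motifs. PU.1 letters were in 2.44% of all 32851 promoters and in 3.33% of the 60 member promoters, those of Rab2b and Rab32. CLEAR letters were in 0.79% of all and 3.33% of member promoters (Rab21 and Rab5a). AP-1 letters were in 6.75% of all but 3.33% of member promoters (Rab15 and Rab34). ISRE letters were in 2.98% of all but 1.67% of member promoters (Rab19). The member shares rest on 1 or 2 promoters per motif and were not tested. These matches describe the sequence and do not show binding.

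Ratios between paralogues of the same Rab were read over 9 pairs, since they do not depend on library scaling. The pairs were picked by hand, and other paralogues among the members, such as Rab27a and Rab27b, were not compared. Here 3 libraries against 3 allow no exact two-sided permutation p under 0.1, so no pair could pass 0.05. Rab1b over Rab1a was 1.66, 1.55 and 1.43 in MKP5-/- 24 h libraries, 1.18, 1.17 and 1.04 in WT 24 h libraries, and 0.746, 0.665 and 0.719 in WT 0 h libraries. Per length of annotated exon, Rab1b was thus above Rab1a in every 24 h library and below it in every 0 h library. By reads alone Rab1a was above Rab1b in every library, for example with 5337 against 3759 reads in WT 24 h replicate 1. Which of them leads at 24 h thus rests on the lengths used, 3799 bases for Rab1a and 2272 bases for Rab1b. Rab6b over Rab6a averaged 0.416 ± 0.0879 in MKP5-/- 24 h, 0.293 ± 0.00909 in WT 24 h and 0.0904 ± 0.0186 in WT 0 h (SD, n = 3), and no group overlapped another. Rab7b over Rab7 averaged 0.320 ± 0.0104 in MKP5-/- 24 h, 0.219 ± 0.0172 in WT 24 h and 0.253 ± 0.00244 in WT 0 h, again without overlap. Rab8b over Rab8a averaged 4.64 in MKP5-/- 24 h, 5.33 in WT 24 h and 3.43 in WT 0 h. Rab5b over Rab5a averaged 3.10 in MKP5-/- 24 h, 3.00 in WT 24 h and 1.73 in WT 0 h, where the genotypes overlapped (exact permutation p = 0.6). Between WT 24 h and WT 0 h, 8 of the 9 pairs did not overlap (exact permutation p = 0.1, adjusted over the 9 pairs 0.11), the exception being Rab2b over Rab2a. Between genotypes at 24 h, the groups lay apart for every pair except Rab11b over Rab11a and Rab5b over Rab5a. Of all tested genes taken singly, 64.1% did not overlap between the WT groups and 44.9% between genotypes. No such share is given for ratios of other gene pairs, and the pairs that share Rab5a are not independent.

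**Figure D4:**
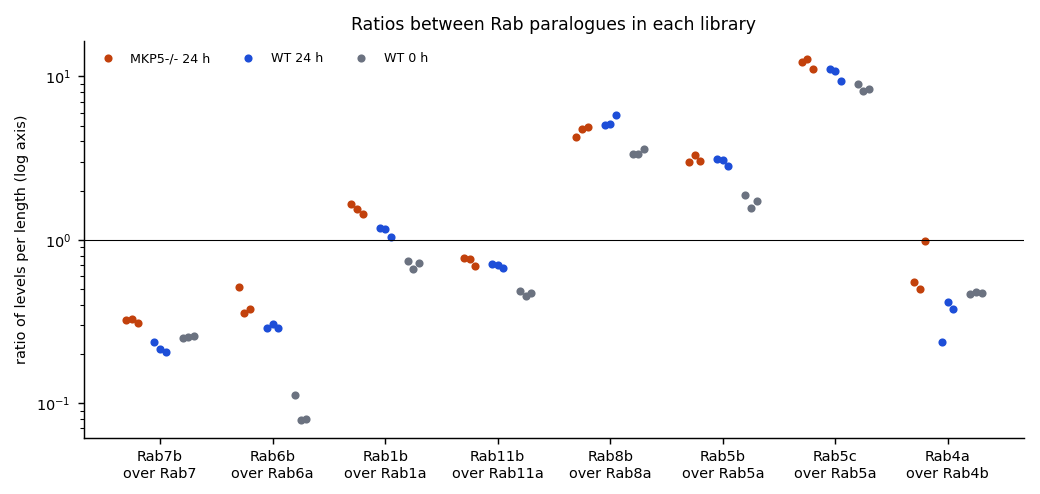
Ratio of the levels per length of 8 Rab paralogue pairs in each library, on a log axis, for MKP5-/- 24 h, WT 24 h and WT 0 h. The line marks a ratio of 1, which Rab1b over Rab1a exceeded in all 24 h libraries and in no 0 h library.

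The proteins that load, switch off and read Rabs were described from lists of 117 genes, of which 109 were tested. In MKP5-/- 24 h against WT 24 h, 7 were higher (6.4%, against 11.8% of all tested genes) and 33 lower (30.3%, against 16.9%), with a median log2 fold change of -0.13. In WT 24 h against WT 0 h, 36 were higher (33.0%, against 27.4% of all tested genes) and 22 lower (20.2%, against 28.1%), with a median of 0.03. Among 33 tested GTPase-activating proteins, 2 were higher (6.1%) and 13 lower (39.4%) in MKP5-/- cells, with a median of -0.20. Among 34 exchange factors 3 were higher (8.8%) and 10 lower (29.4%), and among 32 effectors 2 were higher (6.2%) and 7 lower (21.9%). Effectors were thus called at 28.1%, against 28.7% of all tested genes. Among 7 prenylation and GDP dissociation genes none was higher and 2 were lower (28.6%). Over all tested genes, 1733 were higher and 2480 lower in MKP5-/- cells, and under upper-quartile scaling 2505 were higher and 1569 lower. The machinery counts are given for the deposited scaling only, and whether their lower side depends on scaling was not tested.

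**Figure D5:**
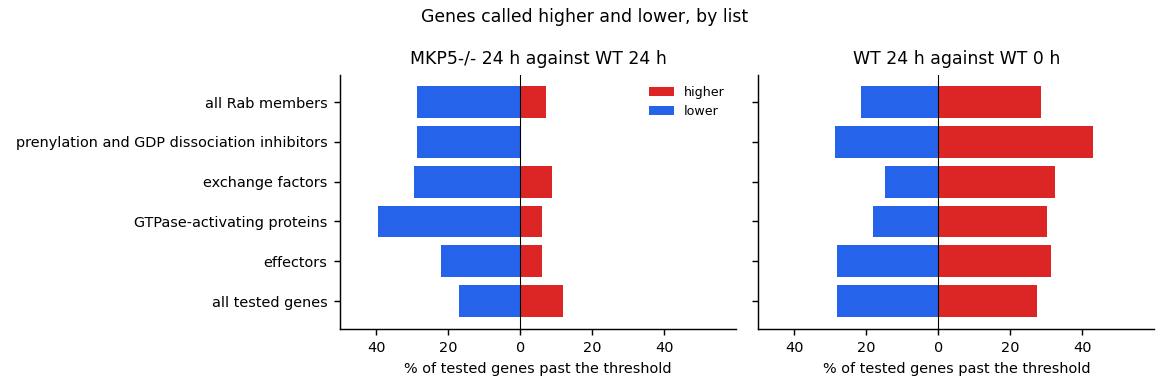
Percent of tested genes called higher (red, right) and lower (blue, left) for the Rab members, 4 machinery lists and all tested genes, in MKP5-/- 24 h against WT 24 h and WT 24 h against WT 0 h. On the deposited scaling, 28.6% of Rab members were lower in MKP5-/- cells, against 16.9% of all tested genes.

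Named machinery genes, the called ones with the smallest p in each list, covered each step of the cycle. Gdi2, a GDP dissociation inhibitor, averaged 57.4 ± 3.67 RPKM in MKP5-/- 24 h, 73.1 ± 4.60 RPKM in WT 24 h and 43.5 ± 0.736 RPKM in WT 0 h (SD, n = 3). It rose with ox-LDL by 0.75 and was lower in MKP5-/- cells by 0.35 (adjusted p = 0.0018). Chml, an escort protein that presents new Rabs for prenylation, rose by 0.89 and was lower by 0.75 in MKP5-/- cells, whereas Rabggtb, a subunit of the prenyl transferase, fell with ox-LDL by 0.54. The Rab5 exchange factor Rin3 rose with ox-LDL by 1.33 and its relative Rin2 was higher in MKP5-/- cells by 0.79, at 14.3 ± 1.75 RPKM against 8.24 ± 0.548 RPKM in WT 24 h. Rab3il1, an exchange factor of the Rab8 branch, rose with ox-LDL by 1.10. Dennd4b was higher by 0.44 and Dennd4a lower by 0.61 in MKP5-/- cells, both of the family that loads Rab10. Among GTPase-activating proteins, Tbc1d4 rose with ox-LDL by 1.96 and was lower by 0.75 in MKP5-/- cells. Tbc1d2, which acts on Rab7, fell with ox-LDL by 1.66, and Tbc1d15, also of Rab7, was lower by 0.45 in MKP5-/- cells. Tbc1d14, linked to autophagy, rose with ox-LDL by 0.89 and was lower by 0.60 in MKP5-/- cells, and Rab3gap2 fell with ox-LDL by 0.79. Among effectors, Eea1, the early endosomal tether that reads Rab5, fell with ox-LDL by 0.89, with 13.4 RPKM in MKP5-/- 24 h, 15.3 RPKM in WT 24 h and 28.4 RPKM in WT 0 h. Rab11fip5 rose by 1.16 and Mical1 by 1.12. In MKP5-/- cells Plekhm1 was lower by 0.57 (adjusted p = 0.00025) and Rilp higher by 0.67 (adjusted p = 0.0086), both of which bind Rab7 on late endosomes and lysosomes. Lrrk1, a kinase of Rab7, rose with ox-LDL by 0.44, and Ppm1h, a phosphatase of Rabs, was lower in MKP5-/- cells by 0.32.

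Some members share exons with another gene, and whether the counting used strand is not given in the sources used here. Reads of Rab2b, Rab24, Rab3a, Rab6a and Rab10 may be mixed with those of Tox4, Prelid1, Mpv17l2, Mrpl48 and Rab10os on the opposite strand, and for Rab24 and Rab2b that partner had more reads than the member (41206 against 2261, and 16205 against 698). Rab26 had 86 reads in all, against 10319 of Traf7, which overlaps it on the same strand. In all, 20 members had an annotated exon overlap, 15 of them on the opposite strand. Reads of close paralogues and of Rab pseudogenes could also have been split in ways that the values do not show.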

How the data were processed

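RNA-seq of 9 libraries was analysed from 1 deposited file per library. The deposited values are log2 normalized counts with a TMM factor, per the file headers, and reads were aligned with STAR to GRCm39, per the submitters' processing notes. The annotation, counting tool and use of strand were not given in these sources. Each value equals the log2 of a read number, raised by 0.5 and divided by gene length, with a constant added per library. Reads were recovered with union exon lengths of GENCODE M21 (built on GRCm38), and 94.2% of the 23784 genes low enough for a check gave whole reads (tolerance 0.01 reads, rising to 0.13 reads at the limit of 3000 reads); 3109 genes were whole at a fitted length, and 31 were left out. Levels (RPKM) are recovered reads scaled to length and library size, and the pseudocount makes log2 fold changes of low genes too small.

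Groups came from the labels, which 9 of 9 headers matched. The 14699 tested genes were fitted with limma 3.58.1 (R 4.3.3, statmod 1.5.0; trend and robust options) on the deposited log2 values of all 9 libraries, with 1 mean per group, two-sided tests, and p-values adjusted by Benjamini and Hochberg over all tested genes. The fit was tested on simulated data. Single ratios and sums were compared by exact permutation. Tables and figures used Python 3.11.15, numpy 2.4.6, pandas 2.3.3, scipy 1.17.1 and matplotlib 3.10.9. The members, gene lists and promoter motifs were chosen with earlier results of these data known. Every member may be named, and of each machinery list up to 4 called genes per comparison with the smallest p. Alternatives were other filters, scalings, pseudocounts and variance models, the 6 libraries of a comparison alone, a replicate block and leaving out each library.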

Additional observations from a re-analysis of the deposited data

How the results depend on the processing

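Each comparison was repeated under 18 alternatives, and no called member changed direction under any of them. Over the called members, 475 of 503 repeats kept the call in WT 24 h against WT 0 h, and 313 of 360 in MKP5-/- 24 h against WT 24 h. The count of called members between genotypes ran from 12 to 22 when 1 library was left out, with 12 without WT 24 h replicate 2 and 13 without WT 24 h replicate 3; leaving out samples also lowers the power of the fit. With ox-LDL it ran from 23 to 29. Under upper-quartile scaling 31 members were called with ox-LDL and 17 between genotypes. Same-numbered libraries of different groups correlated between -0.022 and 0.194 in their deviations from the group means, and differently numbered ones between -0.168 and 0.123. The highest values, 0.194 and 0.146, were those of MKP5-/- replicate 1 with replicate 1 of WT 0 h and of WT 24 h. The main fit had no block because the labels do not say what the numbers mark, and these correlations do not settle whether samples were paired. With a replicate block 29 members were called with ox-LDL and 23 between genotypes, with 8198 and 4367 of all genes. The depth of 11036181 reads in the shallowest library leaves the 14 tested members under 1 RPKM in every group with standard errors of up to 0.63 on the log2 scale, so modest differences of these were not detectable. The alternatives did not touch the read overlap between neighbouring genes.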

Other observations

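Genes with Rab-like names that the symbol rule leaves out were also read, and those named here were chosen after their values were seen. Rabac1, an acceptor protein that helps Rabs onto membranes, was at 78.6 RPKM in MKP5-/- 24 h, 68.5 RPKM in WT 24 h and 80.5 RPKM in WT 0 h, above all but 4 Rab members in WT 0 h. It was higher in MKP5-/- than in WT at 24 h by a log2 fold change of 0.20 (adjusted p = 0.016) and fell with ox-LDL by 0.24 (adjusted p = 0.0025). The genotype call was lost without limma's trend and robust options and without WT 24 h replicate 2. Rabl6, a Rab-like GTPase, fell with ox-LDL by 0.36, with 9.75 RPKM in MKP5-/- 24 h, 10.4 RPKM in WT 24 h and 13.3 RPKM in WT 0 h. Rabepk, which binds Rab9, fell with ox-LDL by 0.63, with 2.63 RPKM in MKP5-/- 24 h, 2.28 RPKM in WT 24 h and 3.53 RPKM in WT 0 h. Among the exchange factors, Dennd3 differed by more than any other gene of the machinery lists, with a log2 fold change of -3.51 with ox-LDL (adjusted p = 0.00056) at 0.0866 RPKM in MKP5-/- 24 h, 0.0527 RPKM in WT 24 h and 0.485 RPKM in WT 0 h, beside the fall of the neutrophil and precursor markers, whose part in it was not tested.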
